A study of Rattus norvegicus with 8 samples.

Results

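The genes of glutathione metabolism, the peroxiredoxins and the related antioxidant enzymes were examined for their response to TGF-beta-1, a transforming growth factor, in rat intestinal epithelial cells. They were chosen by symbol from the platform annotation, as the glutathione transferases (Gsta, Gstm, Gstp, Gstt, Gsto, Gstk and Mgst), the peroxiredoxins (Prdx), the glutathione peroxidases (Gpx), the symbols that start with Txn, and Gclm, Gsr, Sod1, Sod2, Cat, Nqo1, Hmox1, Fth1 and Ftl1. This gave 49 genes on 57 features, out of 17402 genes and unnamed features on 20500 features in all. Gclc, the catalytic subunit of glutamate-cysteine ligase, was also named in the selection and was not measured under this symbol. RIE are untransformed rat intestinal epithelial cells in culture, and RIE-Ras cells were derived from them by stable transfection with pSV2-H-Ras(12V), which carries human sequence for a constitutively active H-Ras. Whether RIE-Ras is a clone or a pool is not given in the sources used here. For each line, 4 two-channel arrays compared control cells with cells of that line after 1 hr of TGF-beta-1 at 2 ng/ml. A value is thus the log2 of the treated signal over the control signal of 1 array, and it holds no expression level.

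Glutathione is a tripeptide thiol that transferases couple to electrophiles and that glutathione peroxidases use to reduce peroxides. Peroxiredoxins reduce peroxides with electrons that thioredoxin and thioredoxin reductase pass on from NADPH, while superoxide dismutases and catalase act on superoxide and hydrogen peroxide directly. Many genes of this system are targets of the transcription factor Nrf2, which its partner Keap1 holds back until electrophiles or oxidants modify it, and TGF-beta is known to shift the redox state of epithelial cells.

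From every value the median of its array was subtracted, which lay between 0.20 and 0.45 on the log2 scale. Leaving out this step raised the median of all features to 0.35 in RIE and 0.29 in RIE-Ras cells and the median of the antioxidant genes to 0.16 and 0.11, so directions here mean lower or higher than the typical transcript. The arrays agreed only in part: over all features, the correlation between RIE replicates 3 and 4 was 0.692, while RIE-Ras replicate 1 correlated with the other RIE-Ras arrays between -0.0522 and 0.145. The labels count the samples of each line without saying that each is a culture of its own, and the p-values cover only the spread seen among these arrays. In such bulk RNA a smaller share of cells with a transcript and less of it per cell cannot be told apart.

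In RIE cells 34 of the 49 genes had a negative mean ratio, with a median of -0.20, against 8836 of all 17402 features and a median of -0.01. In RIE-Ras cells 35 were negative, with a median of -0.17 against 0.01. After adjustment over all features in limma, 1 gene fell in RIE cells, Gstp1, where 0.0575% of all features passed on the lower side. In RIE-Ras cells 1 gene fell, Prdx5, where 0.121% of all features passed on that side. None of the 49 passed on the higher side in either line, where 0.0172% of all features did so in RIE and 0.299% in RIE-Ras cells. At an unadjusted p under 0.05, 18 of the 49 (36.7%) were lower in RIE cells and 1 was higher, against 11.5% and 6.03% of all features. In RIE-Ras cells these counts were 16 (32.7%) and 1, against 8.45% and 10.9% of all features. Without centring, 5 genes were lower and 11 higher in RIE cells at that p, against 1.41% and 42.2% of all features. In RIE-Ras cells 6 were then lower and 7 higher, against 1.37% and 38.2%. This change of scale turned the sign of 16 genes in RIE and 17 in RIE-Ras cells. Those with a negative mean that became positive were Gclm, Gpx4, Gpx8, Gsr, Gsta1, Gsta2, Gsta3, Gsta4, Gstm5, Gstm6l, Gstm7, Gstt1, Txndc12, Txndc15, Txnip and Txnrd2 in RIE cells and Gpx7, Gsr, Gsta1, Gsta2, Gsta4, Gstk1, Gstm1, Gstm6l, Gstt1, Hmox1, Mgst1, Prdx3, Prdx4, Sod2, Txn2, Txndc15 and Txnrd2 in RIE-Ras cells.

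**Figure D1:**
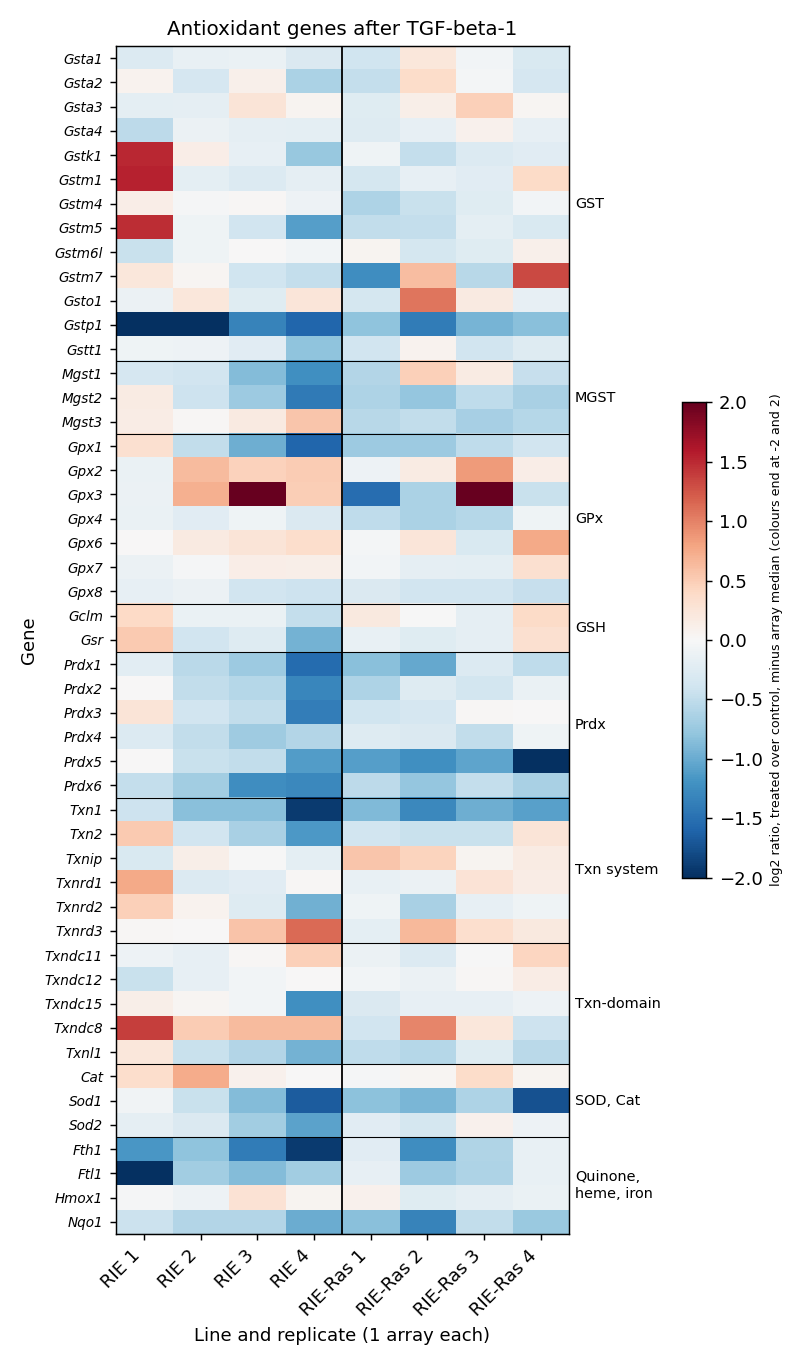
Log2 of treated over control signal, minus the array median, for the 49 genes (rows, grouped by role) on the 8 arrays (columns, RIE left and RIE-Ras right). Colours end at -2 and 2. Gstp1, the peroxiredoxins, Txn1, Sod1, Nqo1 and the ferritin genes are blue on most arrays, and Gstm1, Gstm5 and Gstk1 are reddest on RIE replicate 1 (1.54, 1.47 and 1.5).

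Glutathione transferases of the cytosolic and kappa classes numbered 13, and their medians were -0.15 in RIE and -0.13 in RIE-Ras cells, turning to 0.20 and 0.15 without centring. Gstp1, the pi-class transferase, stood apart. Its ratios in RIE cells were -3.17, -2.15, -1.33 and -1.59 on replicates 1 to 4, and in RIE-Ras cells -0.81, -1.40, -0.93 and -0.84. Every array was below 0, and the lines overlapped only through RIE-Ras replicate 2 and RIE replicate 3. In RIE cells Gstp1 fell by 2.06 ± 0.27 on the log2 scale (moderated SE, n = 4), a 4.17-fold decrease relative to the array median (limma adjusted p = 0.0493). In RIE-Ras cells its mean was -0.99 ± 0.27 (limma adjusted p = 0.108). Without centring the means of Gstp1 were -1.7 (RIE) and -0.71 (RIE-Ras). The call in RIE cells was kept without RIE replicate 1, at -1.69 (limma adjusted p = 0.0393). It was lost without RIE replicate 2, 3 or 4 (-2.03, -2.30 and -2.22) or any RIE-Ras array, which enter the shared spread (limma adjusted p between 0.0768 and 0.154). Without RIE replicate 1, Gstp1 also passed in RIE-Ras cells.

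The deposited values carry no feature sequence here, and the rat genome holds close relatives of Gstp1 and of the alpha and mu classes, so how far features read a relative as well was not tested. The region around the start of Gstp1 is shown because this gene had the largest fall of the 49. It comes from RefSeq (build GRCr8, chr1:210769656-210769955, minus strand), runs 5′ to 3′ from 250 bases before the start to 50 bases into the gene, and has in capitals a match to the core of the antioxidant response element, the sequence that Nrf2 binds.
Gstp1: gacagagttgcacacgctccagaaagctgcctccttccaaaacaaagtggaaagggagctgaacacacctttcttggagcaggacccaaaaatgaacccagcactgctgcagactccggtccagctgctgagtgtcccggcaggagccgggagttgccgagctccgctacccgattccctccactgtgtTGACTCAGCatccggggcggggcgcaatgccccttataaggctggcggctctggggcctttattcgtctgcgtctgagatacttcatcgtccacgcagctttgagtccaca

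The other transferases gave smaller ratios, and none passed. The 4 alpha-class genes Gsta1, Gsta2, Gsta3 and Gsta4 ranged from -0.26 to -0.01 in RIE cells and from -0.13 to 0.10 in RIE-Ras cells. Gsta4, whose enzyme conjugates the lipid peroxidation product 4-hydroxynonenal, was at -0.26 ± 0.11 in RIE cells (limma adjusted p = 0.273) and at 0.10 without centring. The mu-class gene Gstm4 lay between -0.10 and 0.14 on the RIE arrays, and at -0.61, -0.44, -0.24 and -0.05 on the RIE-Ras arrays. The lines overlapped on 1 array of RIE-Ras, and the difference of -0.35 ± 0.16 did not pass (limma adjusted p = 0.495). Gstm1, Gstm5 and the kappa-class gene Gstk1, whose enzyme sits in mitochondria and peroxisomes, shared a pattern in RIE cells. On RIE replicate 1 they stood at 1.54, 1.47 and 1.5, and on the other RIE arrays between -1.10 and 0.13. In RIE-Ras cells the same 3 genes lay between -0.49 and 0.38. Their RIE means of 0.22, -0.03 and 0.18 depend on that array. Gstm7 was spread most widely of the transferases in RIE-Ras cells, with -1.24, 0.62, -0.56 and 1.32 on replicates 1 to 4. Gstm6l, Gsto1 and Gstt1 had means between -0.30 and 0.19 in both lines.

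Microsomal transferases are membrane proteins of a separate family that also act on lipid peroxides. Mgst3 was at 0.15, 0.03, 0.18 and 0.55 on RIE replicates 1 to 4, and at -0.56, -0.50, -0.67 and -0.57 in RIE-Ras cells. All RIE arrays lay above 0 and all RIE-Ras arrays below it, and it was the only gene of the 49 whose arrays did not overlap between the lines. Over all features 2.5% were non-overlapping with RIE-Ras lower and 5% with RIE-Ras higher. The mean of Mgst3 was 0.23 ± 0.11 in RIE cells and -0.57 ± 0.11 in RIE-Ras cells (limma adjusted p = 0.321 and 0.0595). The difference of RIE-Ras minus RIE was -0.80 ± 0.15, with a 95% interval from -1.15 to -0.45 and a limma adjusted p of 0.228, so it did not pass over all features. The opposite signs do not depend on RIE replicate 4, the highest array, but without centring the RIE-Ras mean was -0.29 and the RIE mean 0.58. Mgst2 gave similar means in both lines, -0.60 ± 0.21 and -0.64 ± 0.21 (limma adjusted p = 0.214 and 0.166). On RIE arrays it ran from -1.41 to 0.16 and on RIE-Ras arrays from -0.78 to -0.51. Mgst1 was at -0.70 ± 0.21 (RIE) and -0.10 ± 0.21 (RIE-Ras) (limma adjusted p = 0.166 and 0.826).

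The 7 glutathione peroxidase genes had no common direction, with 3 negative in RIE and 4 in RIE-Ras cells. Gpx4, which reduces lipid hydroperoxides in membranes, was at -0.13, -0.23, -0.09 and -0.29 in RIE cells, with a mean of -0.18 that was 0.17 without centring. In RIE-Ras cells it was at -0.51, -0.63, -0.57 and -0.09. Replicate 4 of RIE-Ras lay within the RIE range, and the RIE-Ras mean of -0.45 ± 0.11 did not pass (limma adjusted p = 0.0969). Gpx1, the cytosolic enzyme, had RIE values from -1.59 on replicate 4 to 0.32 on replicate 1, with a mean of -0.68 ± 0.26, and a mean of -0.58 ± 0.26 in RIE-Ras cells (limma adjusted p = 0.228 and 0.258). Gpx8, of the endoplasmic reticulum, was below 0 on all 8 arrays, with means of -0.27 ± 0.10 and -0.38 ± 0.10 (limma adjusted p = 0.218 and 0.101), but at 0.09 and -0.09 without centring. Gpx2, the gastrointestinal form, was at 0.36 ± 0.18 and 0.26 ± 0.18 (limma adjusted p = 0.334 and 0.462). Gpx3, the secreted plasma form, was the most variable of the 49 genes. It reached 3.05 on RIE replicate 3 and 4.60 on RIE-Ras replicate 3, and lay between -1.52 and 0.71 on the other 6 arrays, so its means of 1.03 ± 0.91 and 0.50 ± 0.91 rest on 1 array in each line. Gpx6 and Gpx7 had means between -0.03 and 0.20.

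Glutathione supply was represented by Gclm, the modifier subunit of glutamate-cysteine ligase, and Gsr, glutathione reductase. Gclm was at -0.09 ± 0.15 (RIE) and 0.09 ± 0.15 (RIE-Ras). Gsr was at -0.27 ± 0.21 and -0.06 ± 0.21, with RIE values from -0.94 on replicate 4 to 0.52 on replicate 1. Neither passed (limma adjusted p between 0.543 and 0.902).

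All 6 peroxiredoxin genes had negative means in both lines, with a median of -0.55 (RIE) and -0.48 (RIE-Ras). Without centring the medians were -0.20 and -0.19, with 6 and 4 of the 6 negative. Prdx5, whose enzyme is found in mitochondria, peroxisomes and the cytosol, was at -1.10, -1.22, -1.06 and -2.15 on RIE-Ras replicates 1 to 4. In RIE cells it was at 0.00, -0.45, -0.50 and -1.12. The lines overlapped only where RIE replicate 4 reached the upper RIE-Ras values. In RIE-Ras cells Prdx5 fell by 1.38 ± 0.22, a 2.61-fold decrease relative to the array median, with a limma adjusted p of 0.0478. Its RIE mean was -0.52 ± 0.22 (limma adjusted p = 0.271). Without centring the means of Prdx5 were -1.1 (RIE-Ras) and -0.16 (RIE). The difference between lines, -0.87 ± 0.31, did not pass (limma adjusted p = 0.395). Without RIE-Ras replicate 4, the lowest array, the mean was -1.13 (limma adjusted p = 0.0704). The call was also lost without RIE-Ras replicate 1, 2 or 3 (-1.48, -1.44 and -1.49) and without RIE replicate 2, 3 or 4 (limma adjusted p between 0.0561 and 0.117), and kept without RIE replicate 1 (limma adjusted p = 0.0456).

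The start of Prdx5 is shown beside that of Gstp1 because it was the call of the other line. It is from RefSeq (GRCr8, chr1:213531978-213532277, minus strand), over the same window and with the same core in capitals, here on the opposite strand and beginning at position -1.
Prdx5: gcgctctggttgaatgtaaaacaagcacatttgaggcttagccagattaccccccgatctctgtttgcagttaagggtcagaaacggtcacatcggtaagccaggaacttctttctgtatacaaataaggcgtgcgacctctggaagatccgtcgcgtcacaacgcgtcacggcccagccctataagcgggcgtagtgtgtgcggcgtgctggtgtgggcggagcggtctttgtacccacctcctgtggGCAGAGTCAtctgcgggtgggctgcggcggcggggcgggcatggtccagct

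Prdx6, which uses glutathione and not thioredoxin as reductant, was at -0.47, -0.69, -1.25 and -1.29 in RIE cells and at -0.52, -0.78, -0.47 and -0.65 in RIE-Ras cells. It was below 0 on every array, and the lines overlapped. Its means of -0.92 ± 0.15 and -0.61 ± 0.15 did not pass (limma adjusted p = 0.0734 and 0.0965). Prdx4, the peroxiredoxin of the endoplasmic reticulum, was at -0.27, -0.50, -0.71 and -0.58 in RIE and at -0.26, -0.29, -0.49 and -0.08 in RIE-Ras cells (means -0.52 ± 0.11 and -0.28 ± 0.11, limma adjusted p = 0.113 and 0.228). It too was below 0 on every array, although its RIE-Ras mean was 0.01 without centring. Prdx1, on 2 features, was at -0.75 ± 0.21 and -0.66 ± 0.21, and its features had means of -0.87 and -0.64 in RIE and -0.78 and -0.55 in RIE-Ras cells. The 2 features of Prdx2 were further apart in RIE cells, at -0.96 and -0.22. The first was the lower on all 4 RIE arrays, at -0.13, -0.64, -0.72 and -2.35, where the second was at 0.13, -0.35, -0.41 and -0.24, so the gap was widest on replicate 4. Prdx3, of mitochondria, was at -0.50 ± 0.23 and -0.17 ± 0.23.

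**Figure D2:**
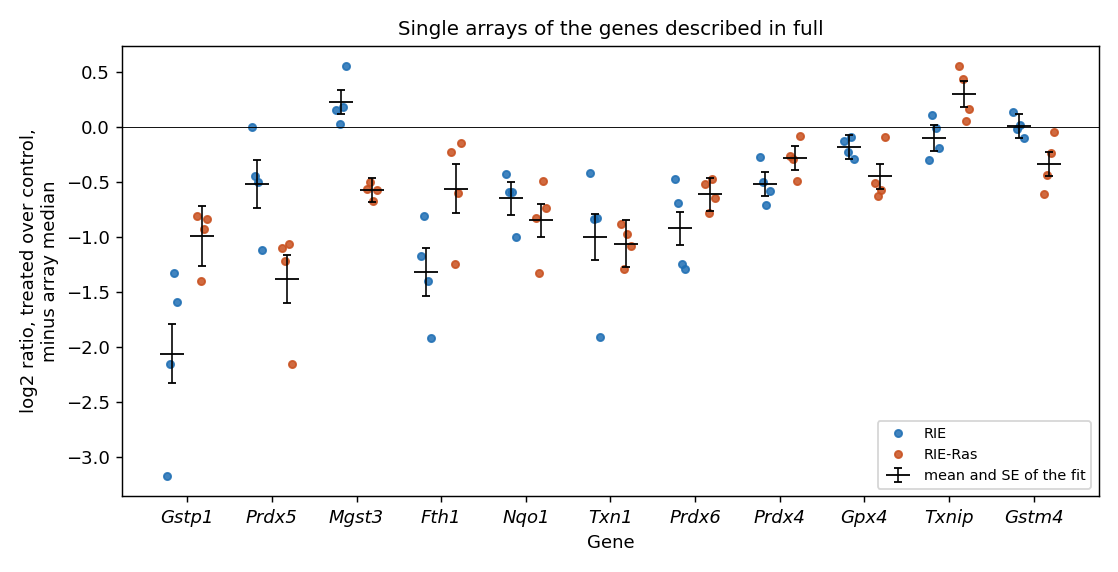
Log2 of treated over control signal, minus the array median (vertical axis), on each of the 4 RIE arrays (blue) and 4 RIE-Ras arrays (orange) for 11 genes, with the mean and moderated SE of the limma fit. Gstp1 is lowest in RIE cells, Prdx5 is lowest in RIE-Ras cells, and Mgst3 is the gene whose lines do not overlap.

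Thioredoxin, the electron donor of most peroxiredoxins, gave like values in both lines. Txn1, the cytosolic form, was at -0.42, -0.84, -0.83 and -1.91 in RIE cells and at -0.88, -1.29, -0.97 and -1.08 in RIE-Ras cells. It was below 0 on all 8 arrays, with means of -1.0 ± 0.21 and -1.06 ± 0.21 (limma adjusted p = 0.111 and 0.0642). The difference of -0.06 ± 0.30 had a 95% interval from -0.74 to 0.63. Txn2, the mitochondrial form, was at -0.41 ± 0.24 and -0.26 ± 0.24. The reductases did not go with Txn1: Txnrd1 was at 0.07 ± 0.17 and 0.04 ± 0.17, Txnrd2 at -0.17 ± 0.21 and -0.24 ± 0.21, and Txnrd3 at 0.43 ± 0.21 and 0.24 ± 0.21. Txnip, which binds and inhibits thioredoxin, was at -0.30, 0.11, -0.01 and -0.19 in RIE cells and at 0.55, 0.44, 0.05 and 0.16 in RIE-Ras cells. Every RIE-Ras array was above 0, and 1 RIE array lay within their range. The difference of 0.40 ± 0.17 did not pass (limma adjusted p = 0.462), and the 2 features of Txnip differed in RIE cells, with means of -0.28 and 0.08. Among the thioredoxin-domain genes outside this cycle, Txndc8, a testis-associated member, had the largest positive mean in RIE cells after Gpx3, 0.79 ± 0.24 (limma adjusted p = 0.168), with 1.39 on replicate 1 and 0.50 to 0.64 on the other arrays. Txnl1 was at -0.43 ± 0.17 and -0.47 ± 0.17 (limma adjusted p = 0.249 and 0.194), and Txndc11, Txndc12 and Txndc15 lay between -0.28 and 0.06 in both lines.

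Of the enzymes that act on superoxide and hydrogen peroxide, Sod1, the cytosolic dismutase, was at -0.76 ± 0.26 (RIE) and -1.02 ± 0.26 (RIE-Ras) (limma adjusted p = 0.204 and 0.0991). The mean of its 2 features was below 0 on all 8 arrays, and the features gave -0.71 and -0.82 in RIE and -1.17 and -0.88 in RIE-Ras cells. The first feature was at 0.05 on RIE replicate 1, and on RIE-Ras replicate 4 the features were at -2.33 and -1.14. Sod2, the mitochondrial dismutase, was at -0.56 ± 0.16 and -0.15 ± 0.16 (limma adjusted p = 0.148 and 0.637). Cat, the catalase gene, was at 0.35, 0.74, 0.08 and 0.01 in RIE cells, a mean of 0.29 ± 0.14, and 0.11 ± 0.14 in RIE-Ras cells (limma adjusted p = 0.312 and 0.707).

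Nqo1, a quinone reductase and a standard Nrf2 target, was at -0.43, -0.59, -0.59 and -1.0 in RIE cells and at -0.83, -1.33, -0.49 and -0.74 in RIE-Ras cells. All arrays were negative and the lines overlapped, with means of -0.65 ± 0.15 and -0.85 ± 0.15 (limma adjusted p = 0.128 and 0.0541). Hmox1, the inducible heme oxygenase and another such target, was at 0.06 ± 0.11 and -0.12 ± 0.11. Its 2 features differed, with means of -0.07 and 0.18 in RIE and -0.32 and 0.07 in RIE-Ras cells. The first of them was below 0 on all 4 RIE-Ras arrays. Fth1, the ferritin heavy chain that stores iron, was at -1.17, -0.81, -1.40 and -1.92 in RIE cells and at -0.23, -1.25, -0.60 and -0.15 in RIE-Ras cells. Its RIE mean of -1.32 ± 0.22 did not pass (limma adjusted p = 0.0734), nor did the RIE-Ras mean of -0.56 ± 0.22 (limma adjusted p = 0.217). RIE-Ras replicate 2 lay among the RIE arrays, and the difference of 0.77 ± 0.31 did not pass (limma adjusted p = 0.435). Ftl1, the light chain, was at -2.94 on RIE replicate 1 and between -0.87 and -0.69 on the other RIE arrays, with a mean of -1.30 ± 0.34 (RIE) and -0.42 ± 0.34 (RIE-Ras) (limma adjusted p = 0.142 and 0.546).

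Across roles, 16 of the 49 genes (32.7%) were below 0 on all 4 RIE arrays and 3 above, where 14.3% and 14.8% of all features were. In RIE-Ras cells 22 genes (44.9%) were below 0 on all 4 arrays and 1, Txnip, above, against 14.1% and 14.3% of all features. Below 0 on all 8 arrays were 11 genes (22.4%), against 4.72% of all features: Fth1, Ftl1, Gpx4, Gpx8, Gstp1, Nqo1, Prdx1, Prdx4, Prdx6, Sod1 and Txn1. Ribosomal protein genes, which code for the ribosome's proteins, were lower still. Their 47 measured members had a median of -0.90 in the RIE and -0.80 in the RIE-Ras fit, with 45 of 47 negative in each line, and 4 passed the test as lower in RIE and 2 in RIE-Ras cells, where 0.0575% and 0.121% of all features did. Leaving out 1 array left 0 to 2 of these calls in RIE, and in RIE-Ras cells 4 without RIE replicate 1 and 0 without any other array, which was counted after the values were seen. By array the ribosomal medians were -0.21, -0.68, -0.88 and -1.65 in RIE cells, and the medians of the antioxidant genes were -0.07, -0.16, -0.24 and -0.58. In RIE-Ras cells the ribosomal medians were -0.62, -0.98, -0.68 and -0.76, and those of the antioxidant genes -0.35, -0.29, -0.22 and -0.14. Within RIE cells, replicate 1 was the highest and replicate 4 the lowest array for 23 of the 49 genes (46.9%), for 33 of 47 ribosomal genes (70.2%) and for 20.5% of all features, a count made after the values were seen. RIE replicate 1 was instead the lowest array for 11 of the 49 genes (22.4%), Gstp1 and Ftl1 among them. The same held for 3 of 47 ribosomal genes (6.38%) and for 34.7% of all features. What the ribosomal shift, or spot brightness, for which no intensities were used, has to do with the antioxidant ratios was not tested.

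**Figure D3:**
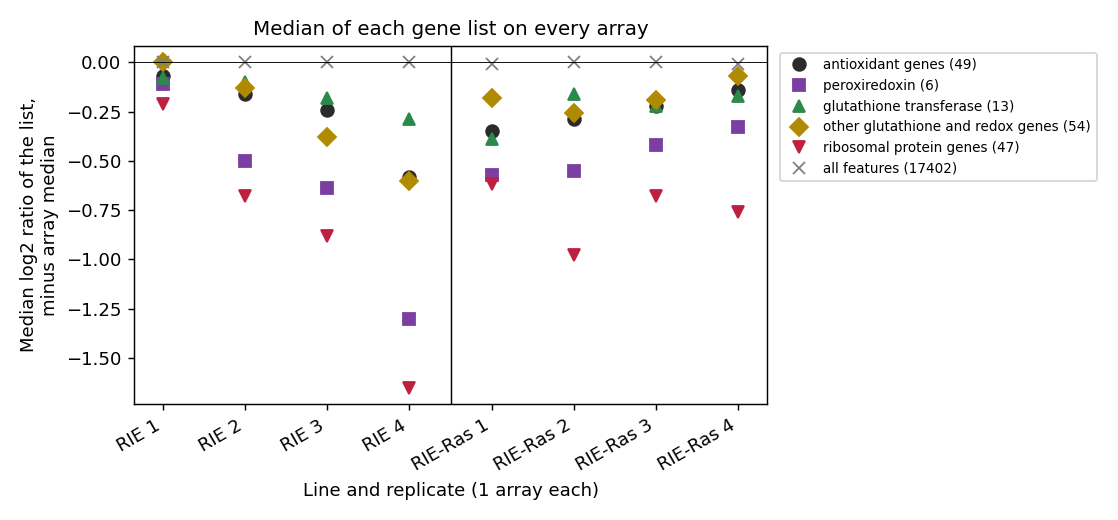
Median log2 ratio of each gene list, minus the array median (vertical axis), on each array (horizontal axis), with the number of genes in the list in parentheses. RIE replicate 4 is the lowest array for the antioxidant genes (-0.58), the peroxiredoxins (-1.30) and the ribosomal protein genes (-1.65).

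The comparison of the lines asked whether these responses differed between RIE and RIE-Ras cells. An effect of activated Ras cannot be told apart here from other differences between the lines, such as those from the transfection. After adjustment in limma, 0% of all features passed for RIE-Ras against RIE, and so none of the 49 genes. At an unadjusted p under 0.05, 3 of the 49 genes were higher in RIE-Ras cells (Fth1, Gstp1 and Txnip) and 2 lower (Mgst3 and Prdx5), against 6.8% and 3.87% of all features. The difference for Gstp1 was 1.07 ± 0.38, with a 95% interval from 0.21 to 1.92 (limma adjusted p = 0.391), and it was 0.70 without RIE replicate 1. The median difference over the 49 genes was 0.04, as it was over all features. For most genes the interval of the difference was wide: that of Prdx6 ran from -0.17 to 0.81, and that of Sod1 from -1.10 to 0.58.

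**Figure D4:**
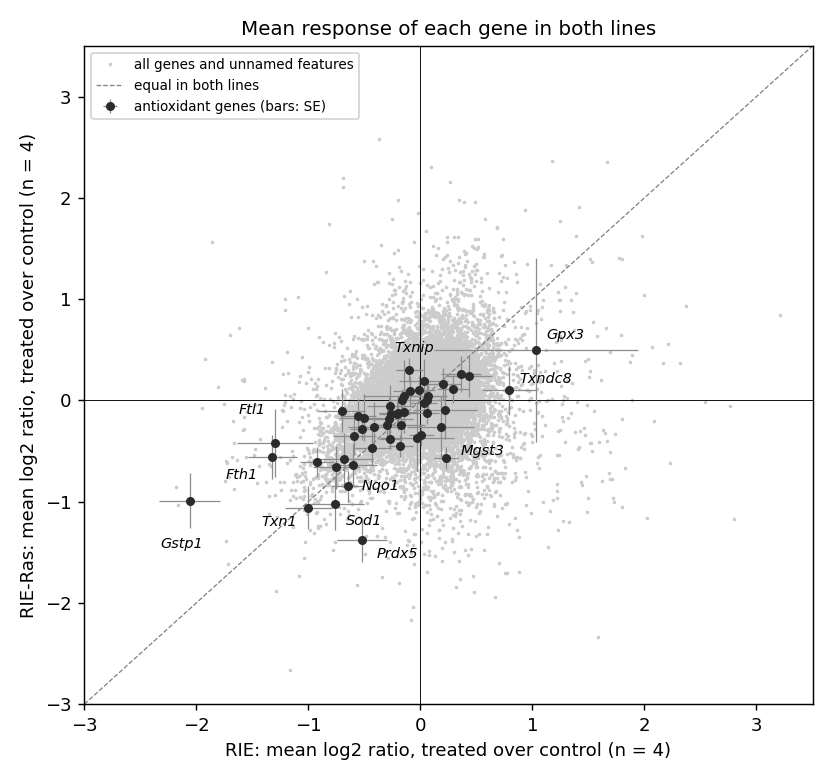
Mean log2 ratio in RIE (horizontal axis) and RIE-Ras cells (vertical axis), each minus the array median, n = 4 arrays a line, for the 49 antioxidant genes (black, bars are moderated SE) and all 17402 genes and unnamed features (grey). Most antioxidant genes lie at or below 0 in both lines; Gstp1 (-2.06 and -0.99) and Prdx5 (-0.52 and -1.38) lie on opposite sides of the dashed line of equal response.

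The core of the antioxidant response element, TGACNNNGC on either strand, was looked for in the RefSeq windows from 250 bases before to 50 after the first listed start of each gene (GRCr8). Windows were found for 39 of the 49 genes, and 13 of these (33.3%) held the core, against 12.2% of 27457 windows of all genes. The AP-1 motif TGANTCA was in 5 (12.8%), against 7.33%. The matches, each read 5′ to 3′ in the direction of the core, are shown so that the 3 free bases can be compared. Gstm5 has 2 matches.
Gclm: TGACTAAGC
Gpx2: TGACTTAGC
Gsta1: TGACTTTGC
Gsta2: TGACCTAGC
Gsta3: TGACTTCGC
Gstm5: TGACCACGC
Gstm5: TGACCCCGC
Gstm7: TGACACAGC
Gstp1: TGACTCAGC
Prdx1: TGACTCAGC
Prdx4: TGACCAAGC
Prdx5: TGACTCTGC
Sod2: TGACCCTGC
Txndc11: TGACGCGGC

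Gstp1 and Prdx1 carried the same 9 bases, in which the core overlaps an AP-1 motif, beginning at position -61 in Gstp1 and at -135, on the opposite strand, in Prdx1. Of the genes with the core, Gstp1, Prdx1, Prdx4, Prdx5, Sod2, Gsta1, Gsta2 and Gstm5 had negative means in both lines, between -2.06 and -0.03. The means of Gclm, Gpx2, Gsta3, Gstm7 and Txndc11 lay between -0.15 and 0.36. Nqo1, Txn1 and Mgst3 had none within these windows. Among genes with a window and no core, Gpx1, Gpx4, Gsta4, Mgst1, Nqo1, Prdx2 and Prdx3 also had negative means in both lines. So did Sod1, Txn1, Txn2, Txndc15, Txnl1 and Txnrd2, and the others did not. Without centring, only Gstp1, Prdx1 and Prdx5 of the genes with the core stayed negative in both lines. Of those without it, Gpx1, Nqo1, Prdx2, Sod1, Txn1 and Txnl1 did. No window was found for Fth1, Ftl1, Gpx8, Gsr, Gstm6l, Gstt1, Hmox1, Mgst2, Prdx6 and Txnip. Whether genes with and without the core differed was not tested. A match is only a run of letters.

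Other genes of glutathione and redox metabolism, of Nrf2 control and NADPH supply, and of oxidant production were taken from lists. In the first, 54 of 62 were measured, with 41 negative in RIE and 36 in RIE-Ras cells (medians -0.24 and -0.20, turning to 0.12 and 0.08 without centring), and none passed in either line. In RIE cells the smallest p were those of Akr1a1, an aldehyde reductase, at -1.07 ± 0.20, Gulo, the last enzyme of vitamin C synthesis, at -0.59 ± 0.15, and Mt2A, a metallothionein, at -0.93 ± 0.24 (limma adjusted p = 0.0869, 0.133 and 0.140). In RIE-Ras cells they were those of Mt1, another metallothionein, at -0.70 ± 0.14, Akr1a1 at -0.95 ± 0.20 and Mt2A at -1.12 ± 0.24 (limma adjusted p = 0.0639, 0.0686 and 0.0740). Gulo was at 0.37 ± 0.15 in RIE-Ras cells, a difference of 0.96 ± 0.21 that did not pass (limma adjusted p = 0.228). Mt1 was at -0.21 ± 0.14 in RIE cells, and the third metallothionein, Mt3, at -0.46 ± 0.30 and -0.32 ± 0.30. In the second list, 25 of 38 were measured and none passed, with 13 negative in RIE and 15 in RIE-Ras cells (medians of -0.09 and -0.02). Slc3a2, the heavy chain of the cystine transporter, was at -0.67 ± 0.13 (RIE) and -0.09 ± 0.13 (RIE-Ras), and its partner Slc7a11 at 0.01 ± 0.14 and 0.25 ± 0.14. Tkt was at -0.65 ± 0.19 and -0.68 ± 0.19 (limma adjusted p = 0.151 and 0.113). Mafg was at -0.60 ± 0.17 and -0.35 ± 0.17, and Cbs at 0.47 ± 0.28 and 0.89 ± 0.28. Nfe2l2, which encodes Nrf2, was at 0.12, 0.02, -0.35 and -0.57 in RIE cells and at 0.69, 0.36, 0.41 and 0.18 in RIE-Ras cells. Its arrays did not overlap between the lines, and the difference of 0.61 ± 0.20 did not pass (limma adjusted p = 0.366). Over all features, 5% were non-overlapping with RIE-Ras higher and 2.5% with RIE-Ras lower. In this list Slc3a2 was also non-overlapping and higher, and Me2 and Mat2a were non-overlapping and lower, in RIE-Ras cells. Keap1 was at -0.09 ± 0.13 and -0.29 ± 0.13. Of 22 measured genes of the third list, 1 passed. Lox, lysyl oxidase, which releases hydrogen peroxide as it crosslinks collagen, rose by 0.66 ± 0.10 in RIE-Ras cells (limma adjusted p = 0.0474). This call was kept without RIE replicate 1 (limma adjusted p = 0.0456) and lost without any other array, at 0.59 to 0.72 (limma adjusted p between 0.058 and 0.119). Nox4, an NADPH oxidase, was at 0.51 ± 0.15 in RIE cells, above 0 on all 4 arrays (limma adjusted p = 0.155), and at 0.00 ± 0.15 in RIE-Ras cells. Ncf1, an NADPH oxidase subunit with the smallest p of this list in RIE cells, went the other way. It was at -0.52 ± 0.14 in RIE cells, below 0 on all 4 arrays (limma adjusted p = 0.147), and at -0.09 ± 0.14 in RIE-Ras cells. Marker lists of epithelial, mesenchymal, leukocyte and endothelial cells, with 5, 6, 5 and 4 genes measured, had no member past the threshold. Col1a2, the mesenchymal marker that codes for a chain of type I collagen, was at -1.64, -2.95, -0.89 and -1.34 in RIE cells and at -0.66, -1.22, -0.52 and -0.63 in RIE-Ras cells. It was below 0 on all 8 arrays, with means of -1.71 ± 0.29 and -0.76 ± 0.29 (limma adjusted p = 0.0755 and 0.207), and its part in the antioxidant ratios was not tested. The mesenchymal markers had no common direction: 3 of the 6 were negative in each line, with medians of 0.01 (RIE) and -0.15 (RIE-Ras). Ratios do not tell whether these markers were expressed.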

How the data were processed

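RNA of TGF-beta-1 treated and control cells was compared on 8 two-channel arrays, 4 of RIE and 4 of RIE-Ras cells. Per the labels, the deposited value is the fold change of treated over control signal. The values deposited by the authors are on a log2 scale, as read from the values themselves: 100.0% give a fold change in whole steps of 0.01 (tolerance 0.01 of a step). The dyes, background correction and normalization used are not stated in these sources, so a feature's dye effect cannot be told apart from the treatment within a line, and no intensities were used. Features were named through the platform annotation, with symbols updated through the GRCr8 gene table, which left all 57 member features under the same symbols. Each array was centred on its median, features of a symbol were averaged, and all 8 arrays were fitted with limma 3.58.1 in R 4.3.3 (lmFit and eBayes; two-sided tests, Benjamini-Hochberg adjustment over 17402 features, threshold 0.05). The fit was tested on simulated data. The only measure of precision is the spread over the 4 arrays of a line. Residual degrees of freedom were 6 and prior ones 2.71; the SE is moderated and shared by the lines. The genes, the lists and the tests were chosen with earlier results of these data known. The rule for genes given on every array took those past the threshold, the 6 with the smallest p in each comparison and those whose lines did not overlap. Of other genes it named up to 4 of a role, or of a list, by smallest p; Gstm1, Gstm5, Gstk1, Gstm7, Gpx2, Gpx3, Hmox1, Cat, Nfe2l2, Keap1, Slc7a11, Txnrd3, Mt3, Col1a2 and Nox4 were among those named for their function or after their values were seen. Same-numbered arrays of the lines did not deviate together, with correlations between -0.0540 and 0.0654. Only RIE labels give an experiment number, 1 array each, so no batch could be fitted. Promoter windows are RefSeq's, and proteins were not used here. Alternatives are given in the closing section.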

Additional observations from a re-analysis of the deposited data

Results flagged for a closer look

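Among 100 sets of 4 arrays, over the 49 genes and their median in each line, 8 (8%) held 1 array that stood far from the rest, and chance flags about 1 in 20. This was RIE replicate 1 for Gstm1 (1.54, against -0.27 to -0.18 on the others), Txndc8 (1.39, against 0.50 to 0.64) and Ftl1 (-2.94, against -0.87 to -0.69). RIE replicate 4 was it for Txndc15 (-1.23, against -0.06 to 0.11). RIE-Ras replicate 4 was it for Prdx5 (-2.15, against -1.22 to -1.06), Txn2 (0.25, against -0.45 to -0.38) and Gsr (0.32, against -0.24 to -0.15). RIE-Ras replicate 2 was it for Txnrd2 (-0.65, against -0.16 to -0.08). Mgst3 had opposite signs on every array of the 2 lines, with a difference of -0.80 for RIE-Ras minus RIE, and the test of that difference did not pass (limma adjusted p = 0.228).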

How the results depend on the processing

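The count of antioxidant genes past the threshold, 1 in each line, depended on the setting. In RIE cells it was 13 without centring, 9 of them higher (26.5%, against 23.3% of all features), and 29 with array weights (59.2%, against 37.6%), which were 8.70 for RIE replicate 3 and 1.10 or less for the others. It was 4 with equal spread per array, 3 after quantile normalization and 3 at an adjusted p under 0.10, against 0.50%, 0.546% and 0.759% of all features. It was 0 with each feature on its own, with RIE fitted alone, with RIE replicates 3 and 4 averaged, and with the replicate number as a block. Of all features, 0.0537%, 0.00575%, 0.00575% and 0% passed in these settings. In RIE-Ras cells it was 4 without centring (8.16%, against 21.0% of all features), 2 with position blocks and 7 at an adjusted p under 0.10 (against 0.684% and 3.87%). It was 0 with equal spread, quantile normalization, the line fitted alone, the averaged replicates and the replicate block. Of all features, 0.0575%, 0%, 0%, 0.023% and 0% passed in those settings. In the contrast of the lines it was 1, Mgst3, with array weights, against 0.77% of all features. Leaving out each array gave 0 to 1 in RIE and 0 to 2 in RIE-Ras cells, against 0% to 0.172% and 0% to 0.787% of all features. In RIE cells, 5 genes were lower at an unadjusted p under 0.05 without centring, against 1.41% of all features. With the averaged replicates they were 11, against 6.52%. In RIE-Ras cells they were 6 without centring, against 1.37%. On leaving out each array they were 11 to 21 in RIE and 9 to 17 in RIE-Ras cells. Of all features, 5.91% to 14.7% (RIE) and 5.9% to 9.94% (RIE-Ras) were then lower at that p. The medians over the 49 genes turned to 0.16 and 0.11 without centring. The Lox call in RIE-Ras cells, followed after seeing the data, was also lost with equal spread, quantile normalization, position blocks, the line fitted alone, the averaged replicates and the replicate block (limma adjusted p between 0.0564 and 0.176). No gene of the 49 given on every array changed sign in its own comparison under any alternative run, and the blocked fit gave no further call. The labels do not say whether same-numbered arrays of the lines belong together. No RIE array deviated most like the RIE-Ras array of its own number, which does not settle whether they were run together. Background correction and a filter on dim spots need intensities and were not run. The 4 arrays of a line set the precision. Apart from centring and the settings with fewer arrays, the cause of these changes was not tested.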
